A study of Macaca mulatta with 8 samples.

Results

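The 3 genes described here are AIRE (ENSMMUG00000004168), PRSS57 (ENSMMUG00000021555) and CGA (ENSMMUG00000000222), 3 of the 16429 genes in a single-cell RNA table of rhesus macaque CD4 T cells. They were chosen by name, because they are known from other tissues and because their counts were high in cells sorted as CD25high CD127low. Values that compare that sort with the others therefore describe how the genes were chosen and were not tested. All 3 were in the table: AIRE had 1709 counted transcripts (unique molecular identifiers, UMIs) in 1169 cells, PRSS57 had 1782 in 619 cells and CGA had 1952 in 559 cells.

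The study followed regulatory T cells (Tregs) given to rhesus macaques by adoptive transfer. On day 3 and on day 20, cryopreserved blood mononuclear cells were thawed, enriched for CD4 and sorted into 4 fractions, and each fraction gave 1 droplet library, 8 in all. The fractions were CFSE+ (dye-positive cells, taken as the transferred cells from the title of the series), CD25high CD127low (the gate for the animal's own Tregs), CD127+ CD25+ and CD127+ CD25- (both conventional CD4 T cell gates). The labels used here name no animal, genotype or further treatment, and with 1 library per fraction and day there is no replicate, so fraction, day and library cannot be told apart. The submitters deposited a class for each cell (transTreg, endoTreg or Tconv), a cluster number and, for 7515 of 25397 cells, a finer name such as endo_Effector_Tregs. No test is given anywhere, and every interval is a 95% interval that covers counting error alone. Overlap of intervals is described for the named genes only, and how many of all genes separate in the same way is not given.

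AIRE, the autoimmune regulator, is a transcriptional regulator best known from medullary epithelial cells of the thymus, where it drives low expression of many tissue-restricted genes that developing T cells then meet. PRSS57 is a serine protease stored in the azurophil granules of neutrophils. CGA is the alpha subunit that the glycoprotein hormones of the pituitary and the placenta share, and it forms a hormone only with one of the beta subunits. None of the 3 is a usual marker of CD4 T cells.

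Libraries held between 1149 and 4751 cells and between 2992787 and 12149559 UMIs, with a median of 2131 to 3095 UMIs per cell. FOXP3, the transcription factor that defines Tregs and no part of the gates, reached 258.5 CPM (UMIs scaled to a library total of 1000000) on day 3 and 127 on day 20 in CFSE+ cells, 76.0 and 67.8 in CD25high CD127low cells, 17.3 and 16.9 in CD127+ CD25+ cells, and 0.530 and 0.246 in CD127+ CD25- cells. IL7R, which encodes CD127, was at 13.4 and 32.1 CPM in the CFSE+ libraries, against 404 and 460 CPM in the CD25high CD127low libraries, so the gate set as CD127low still held much IL7R RNA. The authors classed 2037 of its 3347 cells on day 3 and 1356 of its 2343 cells on day 20 as Tconv, and IL7R had 585 and 638 CPM in these Tconv cells. IL2RA, which encodes CD25, had 634 and 305 CPM in CFSE+ cells, 317 and 212 CPM in CD25high CD127low cells, 97.0 and 86.5 CPM in CD127+ CD25+ cells, and 5.44 and 5.16 CPM in CD127+ CD25- cells. Markers of cells in which the 3 genes are usually found were near 0: the 5 granulocyte markers in the table (of 7) summed to at most 1.19 CPM in any library, KRT8, the 1 thymic epithelial marker in the table (of 4), reached 0.0927 CPM, and the 3 pituitary and placental markers in the table (of 7) summed to at most 0.456 CPM. A barcode occurred in more than 1 library for 767 cells, and in no case did a cell with a UMI of one of the 3 genes share its barcode with another such cell for the same gene.

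AIRE was found in every library. CFSE+ cells had 20.2 CPM (17.7 to 22.9) on day 3 and 5.35 CPM (3.06 to 8.68) on day 20. Its level in the CD25high CD127low libraries was 65.4 CPM (60.7 to 70.4) on day 3, with 26.9 CPM (23.1 to 31.2) on day 20. CD127+ CD25+ cells had 26.8 CPM (23.5 to 30.5) on day 3 and 17.5 CPM (15.1 to 20.3) on day 20, and CD127+ CD25- cells had 10.1 CPM (7.94 to 12.6) and 7.99 CPM (6.16 to 10.2). On day 3 the order was CD25high CD127low, CD127+ CD25+, CFSE+ and CD127+ CD25-, with no overlap of intervals between neighbours. On day 20 the CFSE+ and CD127+ CD25- intervals overlapped at the bottom of the order.

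PRSS57 was found mainly in CD25high CD127low cells. CFSE+ cells had 8.89 CPM (7.29 to 10.7) on day 3 and 2.005 CPM (0.736 to 4.36, from 6 UMIs) on day 20. The CD25high CD127low libraries stood at 68.3 CPM on day 3, then 85.3 CPM (78.3 to 92.6) on day 20. CD127+ CD25+ cells had 14.5 CPM (12.1 to 17.3) and 19.9 CPM (17.3 to 22.8), above the CFSE+ library on both days. In CD127+ CD25- cells, the lowest library on day 3, 8 UMIs were counted on day 3, or 1.06 CPM, and 23 UMIs on day 20, or 2.83 CPM (1.79 to 4.24). The CFSE+ and CD127+ CD25- intervals overlapped on day 20.

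CGA was almost limited to 2 of the 4 fractions. CFSE+ cells had 1 UMI among 4142 cells on day 3 and 0 among 1149 cells on day 20, which allows up to 0.261% of cells with a UMI. CD25high CD127low cells had 48.6 CPM (44.5 to 52.9) on day 3 and 155.6 CPM (146 to 165.5) on day 20. CD127+ CD25+ cells had 9.39 CPM (7.49 to 11.6) on day 3 and 29.8 CPM (26.6 to 33.3) on day 20, and CD127+ CD25- cells had 1 and 5 UMIs. The 2 fractions that held CGA did not overlap with the 2 that nearly lacked it on either day.

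**Figure D1:**
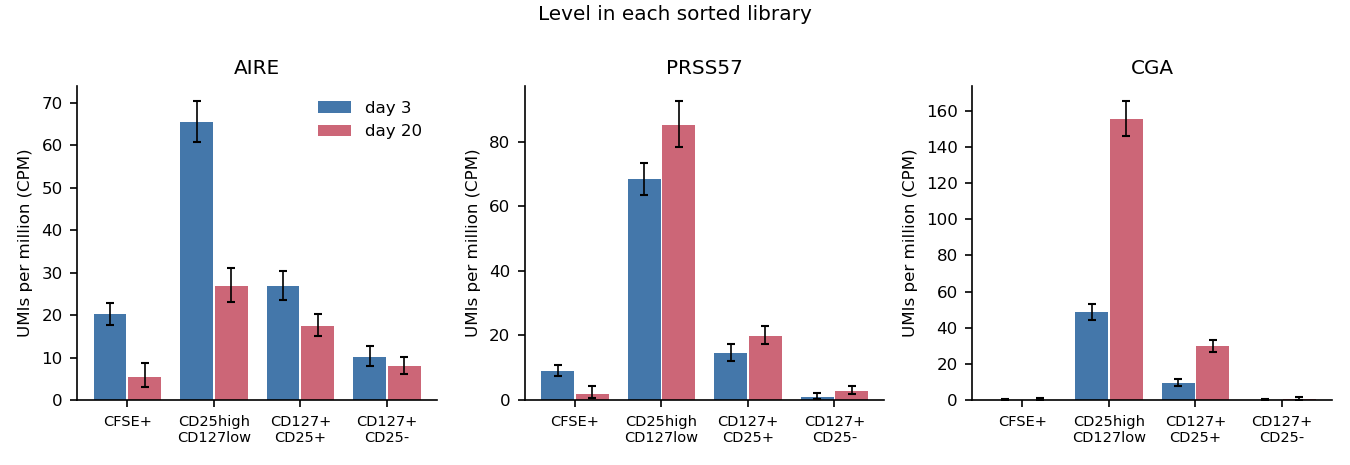
Level of AIRE, PRSS57 and CGA (y axis, CPM) in the CFSE+, CD25high CD127low, CD127+ CD25+ and CD127+ CD25- libraries, with day 3 and day 20 side by side. Bars are 1 library each and lines are exact Poisson 95% intervals; CGA was at 0 in the CFSE+ library of day 20 and stood at 155.6 CPM in the CD25high CD127low library of that day.

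The share of cells with a UMI was highest in CD25high CD127low cells for all 3 genes on both days. For AIRE and PRSS57 on day 3, the share intervals of CFSE+ and CD127+ CD25+ cells overlapped, although those of the levels did not. AIRE was then in 4.66% of CFSE+ and 5.39% of CD127+ CD25+ cells, and PRSS57 in 1.33% and 1.39%. On day 20, and for CGA on both days, the share intervals of these fractions did not overlap. In CD25high CD127low cells, AIRE was found in 12.8% of cells on day 3 and 5.29% on day 20, PRSS57 in 5.83% and 8.92%, and CGA in 4.57% and 10.97%. In CD127+ CD25- cells, which are outside the Treg gate, the shares were 2.04% and 1.496% for AIRE, 0.165% and 0.435% for PRSS57, and 0.0329% and 0.0544% for CGA. Median depth was 3095 and 2674 UMIs per cell in CD25high CD127low cells and 2445 and 2185 in CD127+ CD25- cells. With each cell thinned to 1000 UMIs, the CD25high CD127low shares were 5.83% and 2.65% for AIRE, 3.91% and 6.06% for PRSS57, and 3.17% and 7.98% for CGA. The thinned CD127+ CD25- shares were 0.922% and 0.735% for AIRE, 0.132% and 0.300% for PRSS57, and 0.0329% and 0.0272% for CGA. At equal depth every one of these shares stayed higher in the CD25high CD127low library than in the CD127+ CD25- library of the same day.

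Differences between fractions are given as log2 ratios of CPM after adding 10 CPM to each side, and a gene counts as called if it passed a 2-fold change in one direction in both the day 3 and the day 20 pair, each pair having a library at 20 CPM or above. For CD25high CD127low over CD127+ CD25- cells, AIRE stood at 1.91 in the day 3 pair and 1.04 in the day 20 pair, with 2.82 and 2.89 for PRSS57, and 2.53 and 3.96 for CGA. This contrast chose the genes; of 3567 genes measured, 0.645% were called higher and 0.449% lower. With 30 CPM added in place of 10, AIRE stood at 1.25 and 0.58, which ends its call. Over CD127+ CD25+ cells the ratios were 1.67 on both days for PRSS57 and 1.59 and 2.06 for CGA, against 1.03 and 0.42 for AIRE, which was not called; 0.286% of 3502 genes were called higher. With 30 CPM added, CGA stood at 0.996 on day 3 in that contrast and was no longer called.

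CFSE+ cells, which had more FOXP3 RNA than any other fraction, had less of all 3 genes than CD25high CD127low cells; this contrast shares the CD25high CD127low libraries with those above. The log2 ratios of CFSE+ over CD25high CD127low cells were -1.32 on day 3 and -1.27 on day 20 for AIRE, -2.05 and -2.99 for PRSS57, and -2.54 and -4.05 for CGA. With 30 CPM added AIRE had -0.93 and -0.69, which ends its call. In this contrast 1.09% of 3756 genes were called lower in CFSE+ cells and 0.506% higher, and the median of all genes was 0.35 on day 3 and 0.05 on day 20. For CGA, CD25high CD127low cells were 590-fold (105 to 23350) above CFSE+ cells on day 3, where CFSE+ cells held 1 UMI, and at least 155-fold above them on day 20, computed against 3 UMIs in the CFSE+ library. Between the authors' classes the gap was wider: transTreg cells of the CFSE+ library over endoTreg cells of the CD25high CD127low library gave -1.98 and -1.90 for AIRE, -3.23 and -4.23 for PRSS57, and -3.62 and -5.27 for CGA, with 1.23% of 3814 genes called lower.

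Within the CD25high CD127low libraries, the 3 genes were higher in the cells the authors classed as endoTreg than in those they classed as Tconv. AIRE in endoTreg cells had 107 CPM on day 3 and 44.6 CPM on day 20, and in Tconv cells 36.7 and 15.1 CPM. PRSS57 had 162 and 205 CPM in endoTreg cells, and 3.15 and 3.70 CPM in Tconv cells. CGA had 114 and 377 CPM in endoTreg cells, and 3.31 and 4.49 CPM in Tconv cells. Of 3553 genes, 0.901% were called higher in endoTreg cells, PRSS57 and CGA ranking 1 and 2 by the smaller of the ratios of both days and AIRE ranking 27. The classes come from a clustering of these cells, so these values describe it.

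Within the CD25high CD127low libraries, 94.4% and 94.5% of PRSS57 UMIs and 91.6% and 95.7% of CGA UMIs lay in the finer group the authors named endo_Effector_Tregs, which held 461 cells on day 3 and 444 on day 20. PRSS57 had 419 and 397 CPM in effector cells, and 4.17 and 0.874 CPM in endo_Naive_Tregs cells of the same libraries. CGA had 289 and 734 CPM in effector cells, and 3.79 and 14.9 CPM in naive cells. On day 20, 43.2% of effector cells held a PRSS57 UMI and 52.3% held a CGA UMI, against 0.243% and 2.18% of naive cells. The log2 ratios of effector over naive cells were 4.92 on day 3 and 5.23 on day 20 for PRSS57 and 4.44 and 4.90 for CGA, ranks 1 and 2 of 3799 genes; 7.16% of the genes were called higher, and the median of all genes was 0.42 and 0.38.

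AIRE was shared more evenly between effector and naive cells. It had 153 CPM (135 to 173) on day 3 and 65.9 CPM (52.9 to 81.2) on day 20 in effector cells, and 79.9 CPM (69.5 to 91.5) and 21.9 CPM (14.1 to 32.3) in naive cells. The shares of cells with an AIRE UMI were 27.3% and 12.4% in effector cells and 16.2% and 4.61% in naive cells. Its log2 ratios of 0.86 and 1.25 did not reach 2-fold on both days, and its rank was 419 of 3799. The AIRE levels of effector cells lay above those of naive cells with no overlap of intervals on either day. The median log2 ratio of all genes in this contrast was 0.42 on day 3 and 0.38 on day 20.

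By the authors' cluster numbers, cluster 3 took in 17.0% of the day 3 cells and 22.8% of the day 20 cells of the CD25high CD127low fraction. It held 96.5% and 97.2% of that fraction's PRSS57 UMIs and 95.2% and 98.0% of its CGA UMIs, but 40.4% and 57.1% of its AIRE UMIs. AIRE was found in every cluster of that fraction. On day 3 its level was 141 CPM in cluster 3, 78.4 CPM in cluster 4, 47.3 CPM in cluster 9, 38.9 CPM in both cluster 7 and cluster 10, 29.0 CPM in cluster 6 and 8.18 CPM in cluster 8. Clusters 3 and 4 stood apart from the others and from each other, while the intervals of clusters 6, 7, 9 and 10 overlapped.

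Conventional cells outside the Treg gate held AIRE unevenly. In the CD127+ CD25- library of day 3, AIRE had 37.0 CPM (21.1 to 60.0) in cluster 9 and 16.0 CPM (11.4 to 21.8) in cluster 7, against 3.90 CPM (2.01 to 6.80) in cluster 6 and 1 UMI among 549 cells of cluster 5. On day 20 the values were 24.5 CPM (13.4 to 41.1), 13.0 CPM (9.17 to 17.8), 1.93 CPM (0.710 to 4.21) and 2 UMIs. Clusters 9 and 7 lay above cluster 6 on both days with no overlap of intervals, in cells with almost no FOXP3. In that fraction PRSS57 UMIs were instead found in cluster 5, with 4 cells on day 3 and 13 cells on day 20, where GZMB, a protease of cytotoxic granules, had 4962 and 5704 CPM; clusters 6, 7 and 10 held no PRSS57 UMI.

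**Figure D2:**
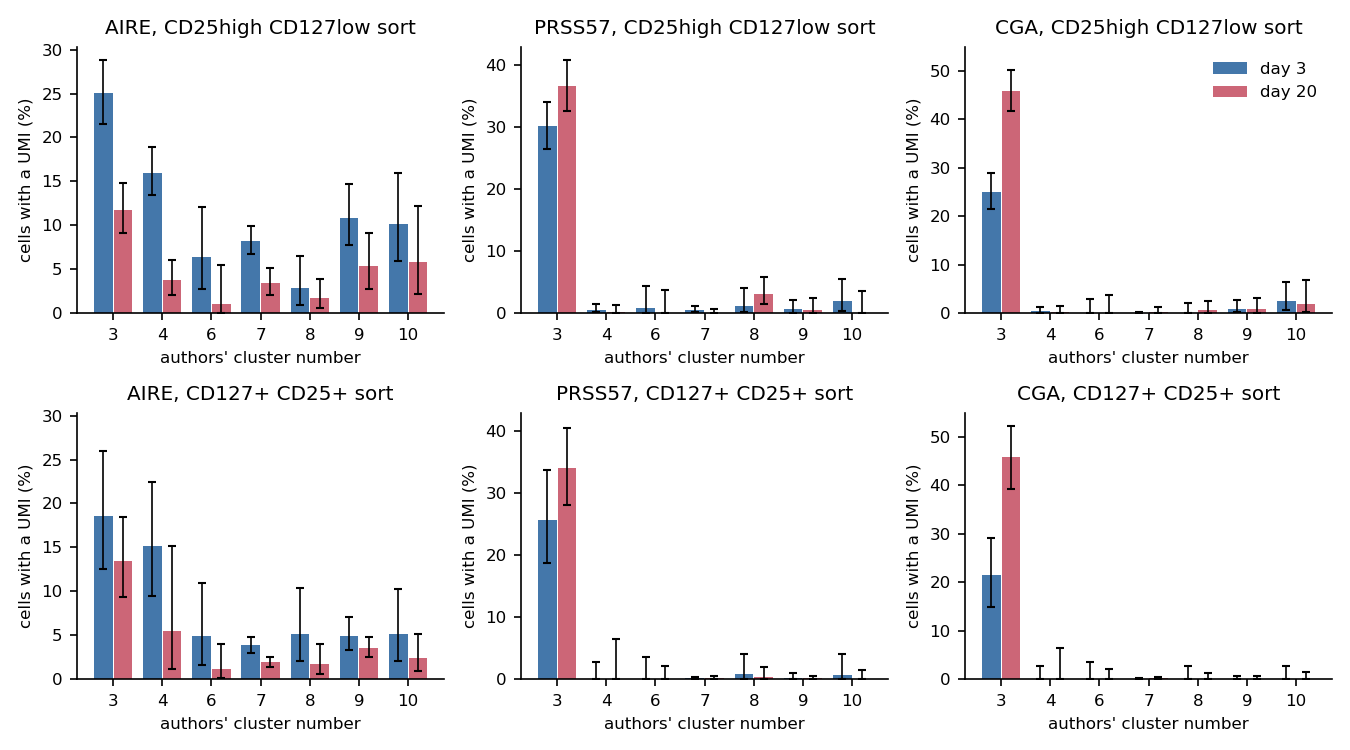
Share of cells with at least 1 UMI (y axis, percent) of AIRE, PRSS57 and CGA in each of the authors' clusters (x axis) of the CD25high CD127low libraries, above, and the CD127+ CD25+ libraries, below, for clusters of at least 50 cells on that day. Lines are exact binomial 95% intervals; cluster 3 of the CD25high CD127low sort held CGA in 46.0% of cells on day 20, while AIRE was spread over all clusters shown.

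The CD127+ CD25+ libraries, sorted by another gate, also held cells of cluster 3. The authors' clusters were made from these cells across libraries. Values between gates within cluster 3, and of cluster 3 against other cells, therefore describe that clustering. Cluster 3 made up 4.74% of the CD127+ CD25+ cells on day 3 and 5.01% on day 20, and its cells had 205 and 191 CPM of FOXP3. In cluster 3 of the CD25high CD127low libraries, AIRE had 141 CPM on day 3 and 65.4 CPM on day 20, PRSS57 had 353 CPM on both days, and CGA had 248 and 650 CPM. In cluster 3 of the CD127+ CD25+ libraries, AIRE had 109 and 87.6 CPM, PRSS57 had 262 and 340 CPM, and CGA had 172 and 529 CPM. The log2 ratios between the 2 gates within cluster 3 were 0.35 and -0.37 for AIRE, 0.42 and 0.05 for PRSS57 and 0.50 and 0.29 for CGA, none of them called; of 3985 genes none were called higher (0.0%) and 3 were called lower (0.0753%).

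Against all other cells of the CD127+ CD25+ libraries, the log2 ratio of cluster 3 was 1.88 (day 3) and 2.05 (day 20) for AIRE, 4.68 and 4.92 for PRSS57, and 4.15 and 5.60 for CGA. In that contrast 3.76% of 3778 genes were called higher, and PRSS57 and CGA ranked 1 and 2. Cluster 3 held 96.2% and 92.8% of the PRSS57 UMIs and 97.6% and 96.5% of the CGA UMIs of these libraries. AIRE differed, with 21.7% and 27.2% of its UMIs in cluster 3. By the authors' classes, endoTreg cells of the CD127+ CD25+ libraries had 139.6 and 284 CPM of PRSS57 and 91.6 and 442 CPM of CGA, and Tconv cells had 0.622 and 1.33 CPM of PRSS57 and 0.249 and 1.12 CPM of CGA (1.58% of 3610 genes called higher).

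Within the CFSE+ library PRSS57 and AIRE differed in how they spread over the finer names. On day 3, AIRE was at 19.7 CPM (15.2 to 25.1) in transferred_Effector_Tregs cells, 20.4 CPM (17.4 to 23.8) in transferred_inTransition cells and 26.3 CPM (11.4 to 51.9) in the unnamed class Unk1, with overlapping intervals. PRSS57 had 131.6 CPM (94.0 to 179) in Unk1, against 9.69 CPM (6.63 to 13.7) in transferred_Effector_Tregs cells and 4.27 CPM (2.96 to 5.97) in transferred_inTransition cells. Those 115 Unk1 cells held 40 of the 108 PRSS57 UMIs of the library. They stood apart in other genes too: IL7R had 240 CPM in Unk1, against 3.03 CPM in transferred_Effector_Tregs and 7.17 CPM in transferred_inTransition cells, and FOXP3 had 85.5 CPM in Unk1, against 346 and 234 CPM. Whether Unk1 cells were transferred cells was not tested. The Unk1 cells held no CGA UMI, whereas in the animal's own effector cells both genes were present. The transferred effector cells had no CGA UMI among 1124 cells on day 3, and the 985 transferred_Naive_Tregs cells of day 20 had 5.03 CPM of AIRE, 0.774 CPM of PRSS57 and no CGA UMI.

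Between days, day 20 was set over day 3 within a fraction, and a call needed a 2-fold change and 20 CPM or more in one of the libraries. In CD25high CD127low cells CGA was 3.20-fold (2.88 to 3.57) higher on day 20, among the 1.53% of 3727 genes called higher. In the same cells AIRE was lower on day 20, with a log2 ratio of -1.03 and 0.188% of genes called lower; the ratio was -0.99 without doublet-like cells, -0.97 as a mean of per-cell CPM and -0.75 with 30 CPM added, which end the call. PRSS57 had a log2 ratio of 0.28 and was not called. The median of all genes in this pair of libraries was 0.03.

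The day values within cell groups ran the same way for CGA. In effector cells of the CD25high CD127low libraries CGA was 2.54-fold (2.28 to 2.84) higher on day 20, and in cluster 3 of the CD127+ CD25+ libraries it was 3.08-fold (2.41 to 3.98) higher. Over all CD127+ CD25+ cells CGA was the 1 gene called higher of 3660 (0.0273%), with a log2 ratio of 1.04 that became 0.98 with TMM factors and 0.97 with median-of-ratios factors, under which no gene was called; the median of all genes there was 0.13. The log2 ratio of AIRE was -1.10 in effector cells, -1.498 in naive cells and -0.90 in Tconv cells of the CD25high CD127low libraries, but -0.28 (-1.03 to 0.46) in cluster 3 of the CD127+ CD25+ libraries, an interval that included 0. PRSS57 stood at -0.07 (-0.30 to 0.15) in effector cells. In CFSE+ cells AIRE had a log2 ratio of -0.98 and was not called, with 2.12% of 4208 genes called lower. PRSS57 had -0.65 in CFSE+ cells, but it was under 20 CPM on both days and so could not be called. Cells named transferred_Naive_Tregs made up 985 of 1149 cells of that library on day 20 and 123 of 4142 on day 3, and their part in these ratios was not tested.

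Counts per cell were examined in the effector cells of the CD25high CD127low libraries. Of cells with AIRE, 53.2% on day 3 and 63.6% on day 20 held a single AIRE UMI, and the highest cell held 9 and 5 UMIs. PRSS57 was held at 5 UMIs or more by 58 cells on day 3 and 26 cells on day 20, with up to 24 and 11 UMIs in a cell. CGA was held at 5 UMIs or more by 39 and 76 cells, with up to 13 and 35 UMIs. The levels of PRSS57 and CGA thus did not rest on single UMIs per cell, and the 10 cells with most UMIs held 21.0% and 15.1% of the PRSS57 UMIs and 22.1% and 20.3% of the CGA UMIs.

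**Figure D3:**
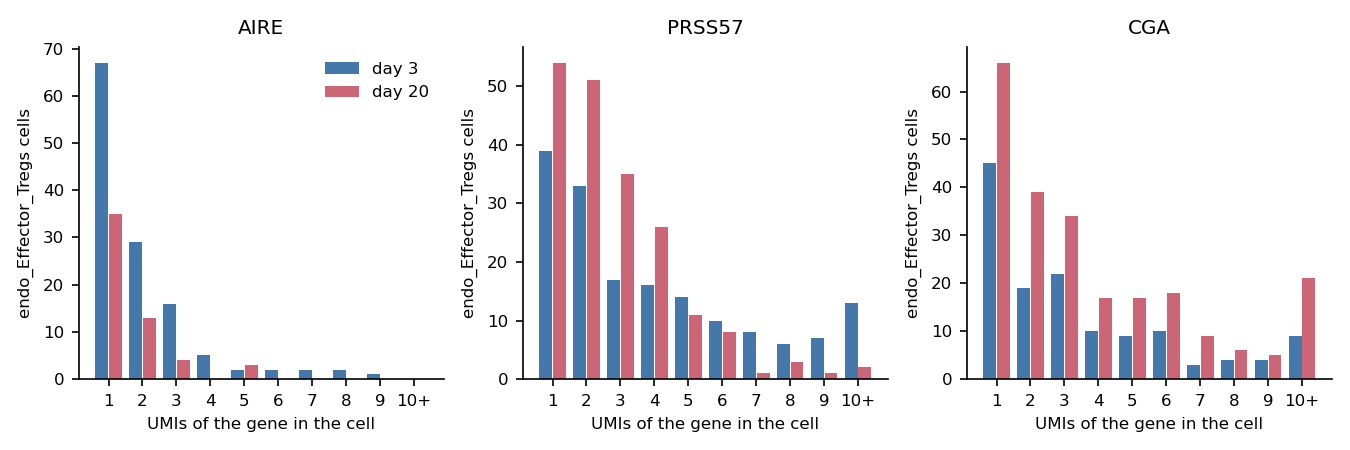
Number of endo_Effector_Tregs cells of the CD25high CD127low libraries (y axis) by the number of UMIs of AIRE, PRSS57 or CGA in the cell (x axis, 10+ for 10 or more; cells at 0 are not drawn), on day 3 and day 20. On day 20, 21 cells held 10 or more CGA UMIs, 2 held 10 or more PRSS57 UMIs and none held 10 or more AIRE UMIs.

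PRSS57 and CGA were found together in the same effector cells. With cells thinned to 1000 UMIs, CGA was present in 44.4% (35.3 to 53.9) of PRSS57-positive cells and in 11.9% (8.69 to 15.8) of PRSS57-negative cells on day 3. On day 20 the shares were 62.7% (53.9 to 70.9) of PRSS57-positive cells and 29.4% (24.3 to 34.8) of PRSS57-negative cells. In cluster 3 of the CD127+ CD25+ libraries they were 26.1% (10.2 to 48.4) of PRSS57-positive and 10.3% (5.41 to 17.2) of PRSS57-negative cells on day 3, with overlapping intervals, and 54.7% (40.5 to 68.4) of positive and 28.1% (21.8 to 35.2) of negative cells on day 20. Cells of 1 library are not replicates, so these are descriptions of the libraries.

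In the shares of thinned cells, AIRE showed no such pairing beyond counting error. These shares rest on 56 AIRE-positive cells on day 3 and 29 on day 20, too few to exclude a pairing. PRSS57 was present in 26.8% of AIRE-positive and 25.2% of AIRE-negative effector cells on day 3, and in 37.9% of AIRE-positive and 29.6% of AIRE-negative cells on day 20. CGA was present in 12 of 56 AIRE-positive and 81 of 405 AIRE-negative cells on day 3, and in 48.3% of AIRE-positive and 38.8% of AIRE-negative cells on day 20, and the intervals overlapped each time. Summed over unthinned effector cells, AIRE had 225 CPM in CGA-positive and 124 CPM in CGA-negative cells on day 3. On day 20 AIRE had 70.0 CPM in CGA-positive and 62.9 CPM in CGA-negative cells. By PRSS57, AIRE had 193 CPM in positive and 132 CPM in negative cells on day 3, and 89.1 and 53.3 CPM on day 20. AIRE was thus higher in the positive cells each time, although none of these ratios was called. The day 3 values rest on 106 and 148 AIRE UMIs by CGA, and on 108 and 146 by PRSS57. Whether AIRE goes with either gene was not tested. Without thinning, 35 effector cells on day 3 and 19 on day 20 held all 3 genes, and 57.3% and 67.1% held at least 1 of them. In CFSE+ cells 5.89% and 1.57% held at least 1, and none held all 3.

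**Figure D4:**
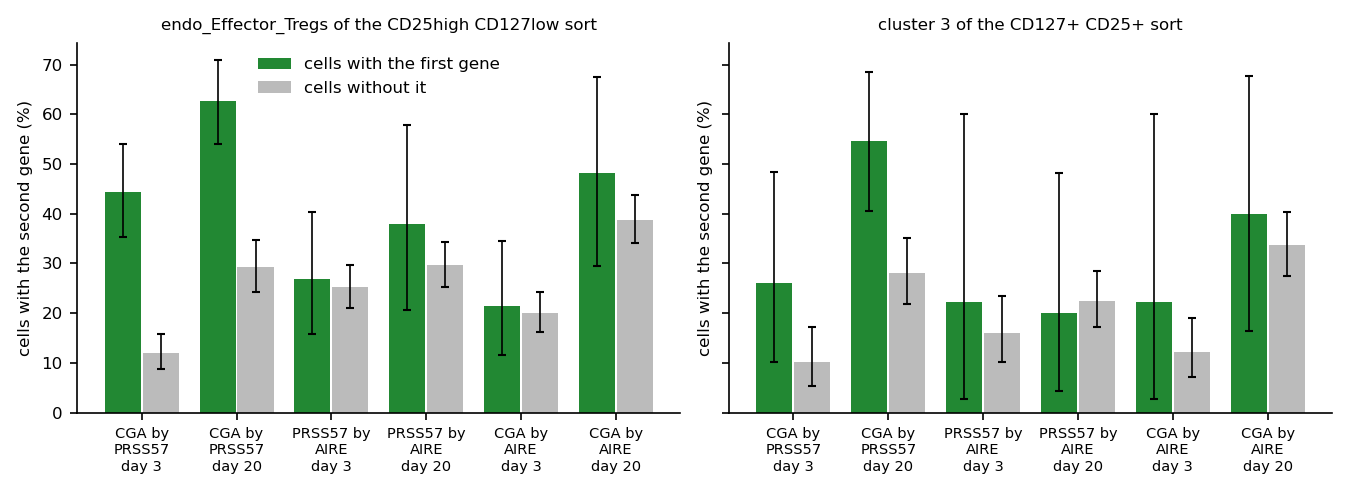
Share of cells (y axis, percent) with a UMI of a second gene among cells with (green, left of each pair) and without (grey) a UMI of the first gene, each cell thinned to 1000 UMIs, in endo_Effector_Tregs cells of the CD25high CD127low libraries and in cluster 3 of the CD127+ CD25+ libraries. Lines are exact binomial 95% intervals; CGA was in 62.7% of PRSS57-positive and 29.4% of PRSS57-negative effector cells on day 20.

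CGA-positive effector cells differed from CGA-negative effector cells of the same library in a small set of genes. Of 4003 genes, 12 (0.3%) were called higher in CGA-positive cells and 21 (0.525%) were called lower, by the same rule on both days; the genes named from these were picked after their values were seen, as the 8 named genes with the greatest ratios each way. IL1RL1, the receptor for interleukin 33, had 437 CPM in CGA-positive and 98.3 CPM in CGA-negative cells on day 3, and 457 CPM in positive and 112 CPM in negative cells on day 20. TNFRSF18, the costimulatory receptor GITR, had 519 CPM in positive and 155 CPM in negative cells on day 3, and 355 CPM in positive and 99.0 CPM in negative cells on day 20. PTTG1 (securin), SCN2A (a sodium channel subunit), BACE2 (an aspartyl protease), CST3 (cystatin C), IGKC (an immunoglobulin light chain) and PRSS57 were the other named genes on the higher side. FOXP3 had 339 CPM in positive and 194 CPM in negative cells on day 3, and 290 CPM in positive and 135 CPM in negative cells on day 20, ratios that were not called.

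Among the genes lower in CGA-positive cells, GZMB had 2.12 CPM in CGA-positive and 59.6 CPM in CGA-negative cells on day 3, and 11.9 CPM in positive and 61.5 CPM in negative cells on day 20. NKG7, a granule membrane protein of killer cells, had 2.12 CPM in positive and 79.0 CPM in negative cells on day 3, and no UMI in positive and 34.8 CPM in negative cells on day 20. EGLN3, an oxygen-sensing prolyl hydroxylase, had 8.48 CPM in positive and 114 CPM in negative cells on day 3, and 1.71 CPM in positive and 68.2 CPM in negative cells on day 20. ANXA1 (annexin A1), GZMM (a granule protease), CYSLTR1 (a leukotriene receptor), PERP (a cell adhesion protein) and C5orf62 were lower as well. CGA-positive cells were the shallower ones, with a median of 3112 UMIs on day 3 and 2330.5 on day 20, against 3469 and 2807 in CGA-negative cells.

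The same 16 genes were then read in cluster 3 of the CD127+ CD25+ libraries, whose cells were not used to pick them by ratio. The cluster itself was made across libraries, and PRSS57, among the 16, was chosen for this report beforehand. Cluster 3 there held 30 CGA-positive and 110 CGA-negative cells on day 3, and 109 and 129 on day 20. All 8 genes of the higher side were above 0 on the log2 scale on day 3 and 7 of 8 on day 20, IGKC being the exception at -0.17, and all 8 of the lower side were below 0 on both days. Over all genes of that contrast with 20 CPM in either group of cells, 56.1% of 4929 were above 0 and 43.9% below 0 on day 3, and 45.6% of 4448 were above 0 and 54.4% below 0 on day 20. IL1RL1 had 401 CPM in CGA-positive and 70.0 CPM in CGA-negative cells of that cluster on day 3, and 419 CPM in positive and 105 CPM in negative cells on day 20. GZMB had no UMI in CGA-positive cells on either day, and 51.9 and 49.5 CPM in CGA-negative cells. EGLN3 had 10.8 CPM in positive and 119 CPM in negative cells on day 3, from 1 and 46 UMIs. On day 20 it had 9.64 CPM in positive and 135 CPM in negative cells, from 2 and 49 UMIs. NKG7, GZMM, PERP and C5orf62 had no UMI in CGA-positive cells on day 3, against 26, 9, 11 and 6 UMIs in CGA-negative cells.

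**Figure D5:**
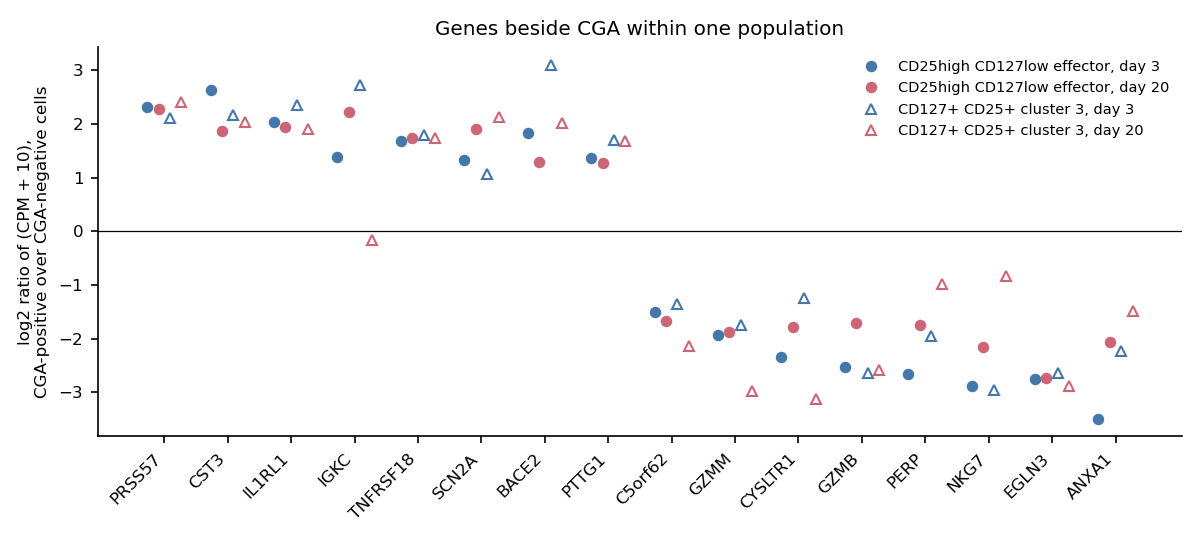
Log2 ratio of CPM, with 10 CPM added to each side (y axis), in CGA-positive over CGA-negative cells for 16 genes (x axis) picked after their values were seen in endo_Effector_Tregs cells of the CD25high CD127low libraries (filled circles), with cluster 3 of the CD127+ CD25+ libraries as open triangles. The 8 genes on the left lie above 0 except IGKC on day 20 in CD127+ CD25+ cells, at -0.17, and the 8 on the right lie below 0.

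PRSS57-positive effector cells differed from PRSS57-negative ones in 10 genes called higher and 10 called lower, 0.255% of 3919 each. IL1RL1, TNFRSF18, CST3 and IGKC were on the higher side and ANXA1, EGLN3, GZMM, NKG7, PERP and GZMB on the lower side, as for CGA. In cluster 3 of the CD127+ CD25+ libraries, of the 8 named genes of the lower side 4 were below 0 on day 3 and 8 on day 20, and of the higher side 8 and 7 were above 0. The granule genes ran the other way there on day 3: GZMB had 95.1 CPM in PRSS57-positive and 22.8 CPM in PRSS57-negative cells, from 12 UMIs in positive and 8 UMIs in negative cells, and the log2 ratios were 1.68 for GZMB, 1.64 for NKG7 and 1.21 for GZMM. On day 20 GZMB had no UMI in positive and 43.6 CPM in negative cells. Of all 4471 genes of that contrast on day 3, 42.3% were below 0, and of 4420 genes on day 20, 56.2%. AIRE-positive effector cells had 0 genes called higher (0.0% of 3924) and 4 called lower (0.102%), CYSLTR1, NAB1 and MTAP being the named ones. These calls rest on few counts. In the 126 AIRE-positive cells of day 3 they had 2, 5 and 6 UMIs, and in the 55 of day 20 they had 1, 0 and 0. Since the cells positive for PRSS57 and for CGA overlap, the lists of both genes share cells.

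Markers of other cell types moved with some of these groups. In all CD25high CD127low cells, CST3, which the monocyte marker list includes, had 272 CPM in CGA-positive and 8.87 CPM in CGA-negative cells on day 3, and 185 CPM in positive and 10.3 CPM in negative cells on day 20. The other 6 monocyte markers summed to 13.2 CPM in positive and 5.85 CPM in negative cells on day 3, and to 26.3 CPM in positive and 5.73 CPM in negative cells on day 20, with a UMI in 7 of 153 positive cells on day 3 and 17 of 257 on day 20. In positive cells most of that sum was LYZ, which had 9.44 CPM in positive and 1.46 CPM in negative cells on day 3. On day 20 LYZ had 20.1 CPM in positive and 1.18 CPM in negative cells. CD14 had 3.77 CPM in positive and 2.92 CPM in negative cells on day 3, and 6.18 and 3.54 CPM on day 20. FCN1, CD68, S100A8 and S100A9 had no UMI in positive cells on either day, and at most 0.780 CPM each in negative cells. CD79B, a B cell receptor chain, had 84.9 CPM in positive and 32.7 CPM in negative cells on day 3, and 91.1 CPM in positive and 17.5 CPM in negative cells on day 20. Its partner CD79A had 24.5 CPM in positive and 19.98 CPM in negative cells on day 3, and 12.4 CPM in positive and 20.4 CPM in negative cells on day 20. CD3D, a chain of the T cell receptor complex, had a UMI in 97.4% of CGA-positive cells on day 3 and 96.9% on day 20, and in 96.9% and 97.1% of PRSS57-positive cells. The part of these markers in the CGA and PRSS57 values was not tested, beyond leaving out doublet-like cells: 179 of 524 CGA UMIs and 224 of 737 PRSS57 UMIs of the CD25high CD127low library of day 3 lay in 233 such cells, and without them the levels were 35.6 CPM for CGA and 52.9 CPM for PRSS57. On day 20, 56 of 1024 CGA UMIs and 48 of 561 PRSS57 UMIs lay in 106 such cells, and the levels without them were 159.9 CPM for CGA and 84.8 CPM for PRSS57. CST3 UMIs counted toward naming a cell doublet-like, so CGA-positive cells could be named so through CST3 alone. With CST3 not used to find such cells, all 30 log2 ratios stayed within their counting intervals.

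Likeness was measured by Pearson's r of log2(CPM + 10) over 18 groups of library and finer name, across 3906 genes, as a description with shared libraries and depth. The genes most like CGA were JAML (r = 0.93), an adhesion molecule of leukocytes, SHFM1 (0.90), a proteasome component, NCALD (0.87), a neuronal calcium sensor, SPATS2L (0.85) and CCDC22 (0.83), with PRSS57 next. Those most like PRSS57 were IGHM (0.91), an immunoglobulin heavy chain, VIM (0.91), the intermediate filament vimentin, SHFM1 (0.88), SNX5 (0.88) and TMSB4X (0.86), an actin-binding peptide. Those most like AIRE were SPATS2L (0.82), GEMIN8 (0.79), SLC38A5 (0.77), SYTL1 (0.77) and MYB (0.75), a transcription factor of proliferating blood cells. Over the 40 groups of library and cluster number, added after seeing the data, PRSS57 was the gene most like CGA (r = 0.93). AIRE stood there at 0.63 with CGA and 0.59 with PRSS57. The closeness of CGA and PRSS57 depended on the measure. Spearman's rho over the 18 groups was 0.52 between them, rank 148 for CGA and rank 475 for PRSS57. Between CGA and AIRE rho was also 0.52, rank 152 for CGA.

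No gene of the lists tied to the known roles of AIRE, PRSS57 and CGA was called higher in CD25high CD127low over CD127+ CD25- cells. Of all genes, 0.645% were called higher there. With at most 11 genes measured per list, a count of 0 lies near that share. Of 20 listed partners of AIRE in transcription, 11 were measured in that contrast and none were called, with a median log2 ratio of 0.14 on day 3 and -0.05 on day 20, beside 0.06 and 0.04 for all genes. Among them PRKDC, a DNA-repair kinase that binds AIRE, had 40.1 and 40.6 CPM in CD25high CD127low cells (day 3, day 20), and 37.0 and 44.2 CPM in CD127+ CD25- cells. Of 16 NF-kB and TNF receptor family genes that act upstream of AIRE in thymic epithelium, 6 were measured and none were called. Of 24 thymic epithelial markers and AIRE-dependent antigens, 7 were in the table and none reached 20 CPM; TG, the thyroid hormone precursor thyroglobulin and such an antigen, had at most 0.834 CPM in any library.

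Of 18 granule protease and azurophil granule genes, 4 were measured in that contrast and 3 were called lower in CD25high CD127low cells, beside 0.449% of all genes: CFD, GZMB and GZMM. GZMB had 23.9 and 45.9 CPM in CD25high CD127low cells (day 3, day 20), and 682.5 and 742 CPM in CD127+ CD25- cells. PRSS57 was higher where these 3 were lower in that contrast. In effector over naive cells of the CD25high CD127low libraries the direction was shared. Both measured members of the list, GZMB and SERPINB1 (an inhibitor of granule proteases), were called higher there, beside 7.16% of all genes. The log2 ratios were 2.07 and 1.98 for GZMB, and the median of all genes was 0.42 and 0.38. Of 26 hormone subunits, receptors and regulators related to CGA, 4 were measured (CREB1, CREM, PRKACB and PDE4B) and none were called; LHB, a beta subunit that pairs with CGA, had at most 0.133 CPM. Of 20 core Treg genes, 10 were measured and 6 were called higher, beside 0.645% of all genes: FOXP3, IL2RA, CTLA4, TNFRSF18, TNFRSF1B and RTKN2.

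The neighbours of the 3 genes, up to 3 on each side, were taken from the RefSeq annotation of T2T-MMU8v2.0, which was used for gene order alone. PFKL, a glycolytic enzyme encoded beside AIRE, had 160 and 128 CPM in CD25high CD127low cells (day 3, day 20), and 75.7 and 83.3 CPM in CD127+ CD25- cells, and was not called. Over naive cells, effector cells had PFKL at log2 ratios of 1.20 and 1.48, which was called higher, as were 7.16% of 3799 genes. DNMT3L, the neighbour of AIRE on the other side and a partner of DNA methyltransferases, had 1 UMI in the whole table. Neighbours of PRSS57 (RNF126, PTBP1) and of CGA (ZNF292) were not called between these fractions.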

How the data were processed

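Blood CD4 T cells were sorted into 4 fractions on each of 2 days and profiled with a droplet 3' assay, per the labels' protocols, and the submitters' processing notes name Cell Ranger 2.1.1 as the tool. No build is stated for the genome in the labels, headers or notes used. The authors deposited 1 table of raw counts (16429 genes, 25397 cells) and a table with each cell's library, class, cluster and partial finer name; the sum of the counts equalled the deposited total in all 25397 cells. No cell was removed, and the lowest cell had 817 UMIs. The deposited names of 3130 genes were IDs, of which 309 took a symbol from the reference table.

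UMIs were summed per library, class, finer name or cluster of at least 50 cells and divided by the summed total (CPM). Ratios are log2 of CPM after adding 10 CPM. Intervals are exact Poisson for counts and exact binomial (Clopper-Pearson) for shares, at 95%; the limit of a count of 0 is 3 UMIs. Shares were also taken after thinning each cell to 1000 UMIs, which left out 29 shallower cells. With 1 library per fraction and day no test was run. Cells with no finer name formed 1 group per library in the likeness measure.

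Alternatives were TMM (edgeR 4.0.16) and median-of-ratios (DESeq2 1.42.0) scaling, other pseudocounts, minimum levels and thinning depths, per-cell means, the authors' classes, and leaving out 1195 doublet-like cells (3 or more red cell, B cell, monocyte or platelet UMIs, or a total over 2 times the library median). After seeing the data, doublet-like cells found without CST3 (1059), cells with 100 or more red cell UMIs, and likeness over cluster numbers were added. Python 3.11.15, numpy 2.4.6, scipy 1.17.1, pandas 2.3.3 and R 4.3.3 were used; calls, likeness and thinning were tested on simulated data.

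The 3 genes and all lists were chosen with earlier results of these data known. Named genes are the 3, the 5 most like each of them, list members at 20 CPM or more, sort and cell type markers; genes named in comparisons of positive with negative cells, and neighbours, were chosen after their values were seen. No sequence is given for the 3 genes.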

Additional observations from a re-analysis of the deposited data

Results flagged for a closer look

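PRSS57 ran in opposite directions between fractions when day 20 was set over day 3. Its log2 ratio was -0.65 in CFSE+ cells, against 0.28 in CD25high CD127low cells and 0.29 in CD127+ CD25+ cells, and the difference between fractions was not tested, since each ratio rests on 1 library per day. The CFSE+ values rest on 6 UMIs on day 20 and 108 UMIs on day 3, of which 40 lay in the class Unk1. In CFSE+ and CD127+ CD25+ cells PRSS57 was under 20 CPM on both days, so no call was possible there.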

How the results depend on the processing

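No direction of a ratio reversed under any alternative run, and the cause of each shift below was not tested unless the alternative itself gives it. Ratios are log2, day 3 then day 20. A pseudocount of 1 CPM in place of 10 widens ratios of low libraries by construction. CD25high CD127low over CD127+ CD25- became 2.58 and 1.63 for AIRE, 5.07 and 4.49 for PRSS57, and 5.45 and 6.60 for CGA. CFSE+ over CD25high CD127low became -1.65 and -2.14, -2.81 and -4.84, and -5.52 and -7.29 for the same genes. CD25high CD127low over CD127+ CD25+ became 2.16 and 2.04 for PRSS57 and 2.25 and 2.34 for CGA. A pseudocount of 30 CPM narrowed them to 1.25 and 0.58, 1.66 and 1.81, and 1.38 and 2.60 over CD127+ CD25- cells. For CFSE+ over CD25high CD127low it gave -0.93 and -0.69, -1.34 and -1.85, and -1.39 and -2.63. Over CD127+ CD25+ cells it gave 0.75 for AIRE on day 3, 1.14 and 1.21 for PRSS57, and 0.996 and 1.63 for CGA. The calls of AIRE over CD127+ CD25- cells and in CFSE+ cells thus end with 30 CPM, and CGA over CD127+ CD25+ cells on day 3 falls just under 2-fold.

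The authors' matching classes gave 2.56 and 1.62 for AIRE, 3.95 and 4.06 for PRSS57 and 3.61 and 5.19 for CGA over CD127+ CD25- cells. They gave -1.98 and -1.90, -3.23 and -4.23, and -3.62 and -5.27 for CFSE+ over CD25high CD127low. Over CD127+ CD25+ cells they gave 1.99 and 1.23, 4.02 and 4.25, and 3.596 and 5.12, so AIRE passes 2-fold there. TMM and median-of-ratios scaling both gave -1.56 for AIRE in CFSE+ over CD25high CD127low on day 3. Without doublet-like cells, day 3 became 2.52 and -1.80 for PRSS57 and 2.17 and -2.17 for CGA in the CD127+ CD25- and CFSE+ contrasts, and 1.29 for CGA over CD127+ CD25+ cells; with CST3 not used to find such cells, all 30 ratios stayed within their counting intervals, as they did without the cells rich in red cell UMIs. Per-cell means gave 4.15 and -4.23 for CGA on day 20 in the CD127+ CD25- and CFSE+ contrasts.

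For day 20 over day 3, a pseudocount of 1 CPM gave -1.74 for AIRE, -1.72 for PRSS57 and -0.11 for CGA in CFSE+ cells, 0.89 for PRSS57 and 0.51 for CGA in CD127+ CD25- cells, and 1.57 for CGA in CD127+ CD25+ cells. A pseudocount of 30 CPM gave -0.51 for AIRE in CFSE+ and -0.75 in CD25high CD127low cells, and 1.24 for CGA in CD25high CD127low and 0.60 in CD127+ CD25+ cells. In CD25high CD127low cells, per-cell means gave 0.50 for PRSS57 and 1.70 for CGA, and leaving out doublet-like cells gave 0.59 and 1.90. Tconv cells of the CD127+ CD25+ libraries gave 0.12 for CGA.

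Genes called, of 23 higher over CD127+ CD25- cells, 10 higher over CD127+ CD25+ cells, and 19 higher and 41 lower in CFSE+ cells, numbered 13, 6, 7 and 23 at 50 CPM or more. TMM and median-of-ratios scaling each gave 12 higher in CFSE+ cells. Between days, 89 lower in CFSE+ cells became 52 (TMM) and 50 (median of ratios), 57 higher in CD25high CD127low cells became 30 and 29, and in CD127+ CD25+ cells 1 higher became 0 (also at 50 CPM) and 4 lower became 13 under both and 2 at 50 CPM. In CD127+ CD25- cells 2 higher became 1 at 50 CPM. Of the 5 genes most like each member, Spearman's rho kept 2 for AIRE, 2 for PRSS57 and 2 for CGA, the 8 libraries kept 0, 1 and 2, and cluster numbers kept 0, 1 and 1. Of 36 shares of cells after thinning, 25 moved beyond their counting intervals without thinning and 11 at 1500 UMIs. No paired analysis was possible because each fraction and day has 1 library. Depth limits CGA in CFSE+ cells on day 20, where 3 UMIs would be 1.002 CPM.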

Other observations

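In the CD25high CD127low library of day 20, 64 cells carried the authors' name transferred_Naive_Tregs. They had 56.8 CPM of CGA (24.5 to 112), 28.4 CPM of PRSS57 (7.74 to 72.7) and 7.10 CPM of AIRE. The 985 cells of that name in the CFSE+ library of the same day held no CGA UMI.

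Outside cluster 3, the highest CGA level of the CD25high CD127low libraries was in cluster 10, at 35.0 CPM (20.7 to 55.3) on day 3, from 18 UMIs in 4 of 158 cells, and 35.1 CPM (17.5 to 62.8) on day 20, from 11 UMIs in 2 of 103 cells.

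Red cell RNA differed between AIRE-positive and AIRE-negative cells of the CD25high CD127low library of day 3, where HBB, a globin chain, had 5671 CPM in positive and 721 CPM in negative cells, although 11.7% of positive and 11.4% of negative cells held an HBB UMI. Of 6 cells with 100 or more red cell UMIs, 2 held AIRE, with 3 AIRE UMIs in all, and AIRE stayed at 65.4 CPM without the 6 cells.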
